A study of Mus musculus with 10 samples.

Results

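The matrix metalloproteinases (MMPs), the ADAMTS proteases and the tissue inhibitors of metalloproteinases (TIMPs) were examined by RNA-seq in mouse ear skin inflamed with MC903. Members were all genes of the deposited table whose symbol begins with Mmp or Adamts followed by a digit, or is Timp1, Timp2, Timp3 or Timp4. This gave 46 of 19703 genes, made up of 23 MMP, 19 ADAMTS and 4 TIMP genes. The antagonist group held 5 libraries from MC903-painted ears of mice gavaged with GSK1562590, a urotensin II receptor antagonist, at 5 mg/kg in 100 µl. The vehicle group held 5 libraries from MC903-painted ears of mice gavaged with the same volume of vehicle. MC903 is calcipotriol, a vitamin D analogue that provokes dermatitis and itch. Both groups had it on 7 consecutive days and again on day 8, the day of the gavage, and ear skin was taken on day 13. The sources used here give no strain, age or sex. Ears free of MC903 were not analysed here, and no untreated level is given. The labels do not say that each sample came from a separate mouse, and p-values then measure only the spread between these samples.

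MMPs and ADAMTS proteases are zinc endopeptidases that cut proteins of the extracellular matrix, growth factors and cytokines. Most are made as inactive precursors, and TIMPs block the active enzymes by binding in the catalytic cleft. In skin they are known from wound repair, from the remodelling of the dermis and from the passage of leukocytes through tissue. RNA levels measured here say nothing of how much precursor was activated or how much active enzyme was inhibited.

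Library totals ranged from 20182979 to 20605965 rounded counts and 17351 to 17516 genes had a count. Levels are given in TPM (a share of all transcripts that accounts for gene length), with the antagonist libraries in the order of replicates 4, 6, 7, 8 and 10 and the vehicle libraries in the order of replicates 3, 9, 10, 11 and 12, as the titles number them. Fold changes, standard errors (SE) and adjusted p-values are from edgeR's quasi-likelihood test of antagonist over vehicle, fitted on the counts of all genes. A gene passed where its Benjamini-Hochberg adjusted p over 15174 tested genes was under 0.05. Of the 46 members 39 had enough counts to be tested, and the other 7 were Mmp1a, Mmp7, Mmp20, Mmp21, Adamts13, Adamts16 and Adamts18. Basal keratinocyte (9 of 9) and fibroblast (14 of 14) markers had enough counts to be tested, and keratinocyte markers summed to 11273 to 13393 TPM in antagonist libraries and 10772 to 16236 TPM in vehicle libraries.

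Antagonist ears had less RNA of the inhibitors Timp1 and Timp3, of the proteases Mmp23, Mmp25, Mmp12, Mmp19 and Mmp16 and of several ADAMTS genes. They had more RNA of Mmp11, Adamts15 and Mmp28. In all, 12 of 39 tested members fell and 3 rose. That is 30.8% lower and 7.69% higher, against 17.4% lower, 16.7% higher and 34.1% in either direction among all tested genes. The median log2 fold change of the tested members was -0.15, and that of all tested genes was -0.00018. A change of 2-fold or more was found in 6 of the 15 members that passed. The matching share over all genes is not given here, so this count is a description only. The most abundant proteases, Mmp2, Mmp3 and Mmp14, did not pass.

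**Figure D1:**
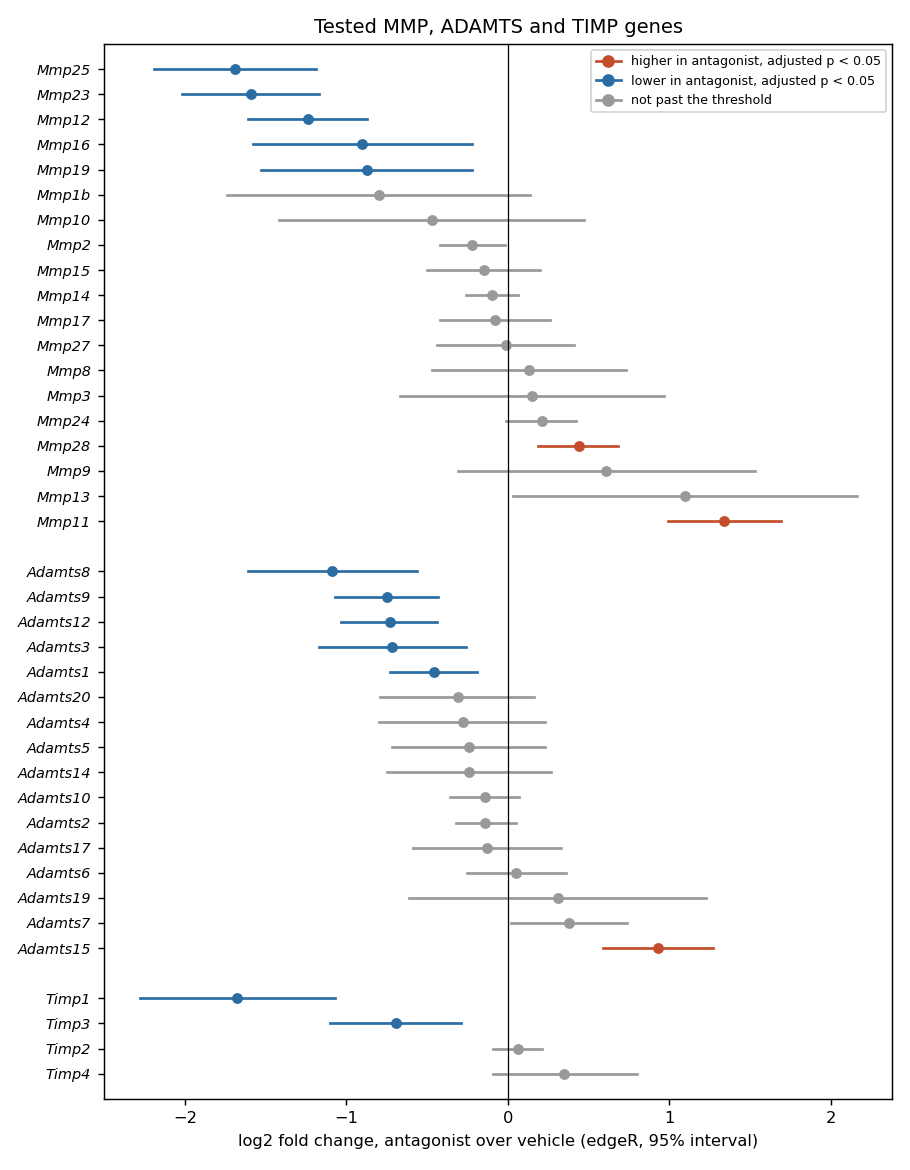
Log2 fold change of antagonist over vehicle for the 39 tested members, with 95% intervals from edgeR, by family. The 12 members that fell lie left of 0 and the 3 that rose lie right of 0, and the intervals of Mmp13 and Mmp9 are among the widest.

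Among the inhibitors, Timp1, the family member known to be induced in inflammation, changed the most. It lies on chromosome X from 20870166 to 20874737, as the deposited table gives coordinates; those of all 46 members overlap the same gene in RefSeq on GRCm38.p6. In antagonist libraries it had 106, 106, 65.1, 56.3 and 94.7 TPM, and in vehicle libraries 327, 289, 392, 148 and 204 TPM. Every antagonist library lay below every vehicle library, although the vehicle libraries spanned a wide range. The means were 85.6 ± 23.4 TPM in antagonist and 271.9 ± 96.96 TPM in vehicle ears (SD, n = 5 each), a change on the log2 scale of -1.68 ± 0.28 (SE; edgeR adjusted p = 0.00205). Timp1 lies inside Syn1, a synapsin gene on the opposite strand, with 0 shared exon bases, and Syn1 had 0.44 to 1.67 TPM in antagonist and 1.11 to 1.52 TPM in vehicle libraries.

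Timp3, the inhibitor that binds to the matrix and also blocks ADAM and ADAMTS proteases, fell by less. It is on chromosome 10 from 86300412 to 86349505. Antagonist libraries had 222, 135, 171, 114 and 126 TPM, against 228, 275, 173, 258 and 319.95 TPM in vehicle libraries. Antagonist replicate 4 lay above vehicle replicate 10, so the groups overlapped. Timp3 fell by 0.69 ± 0.18 (SE) on the log2 scale (edgeR adjusted p = 0.0155).

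Timp2, which besides inhibiting MMPs helps Mmp14 to activate the precursor of Mmp2, was the most abundant inhibitor and did not pass. It had 469, 411, 382, 423 and 376 TPM in antagonist libraries and 413, 394, 368, 427 and 396 TPM in vehicle libraries, which overlapped. It averaged 412 ± 37.2 TPM in antagonist and 399.5 ± 22.5 TPM in vehicle ears (SD, n = 5 each). The 95% interval of its log2 fold change ran from -0.09 to 0.21. Timp4, at 31.9, 26.5, 33.7, 16.2 and 22.3 TPM in antagonist libraries and 15.2, 28.6, 18.3, 23.1 and 18.96 TPM in vehicle libraries, did not pass either. Its log2 fold change was 0.35, with an interval from -0.09 to 0.80 and an adjusted p of 0.192 by edgeR.

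Timp1 made up 9.22% to 15.7% of the summed TIMP TPM in antagonist libraries and 17.3% to 41.2% in vehicle libraries. Summed TIMP RNA was 610 to 828 TPM in antagonist and 857 to 986 TPM in vehicle libraries, while summed MMP RNA was 994 to 1451 TPM in antagonist and 979 to 1438 TPM in vehicle libraries. The ratio of summed TIMP to summed MMP TPM was 0.470 to 0.656 in antagonist libraries and 0.662 to 0.959 in vehicle libraries. These sums weight each gene by its abundance and are given as a description, without a test. In whole tissue, fewer cells of a type and less RNA per cell cannot be told apart.

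**Figure D2:**
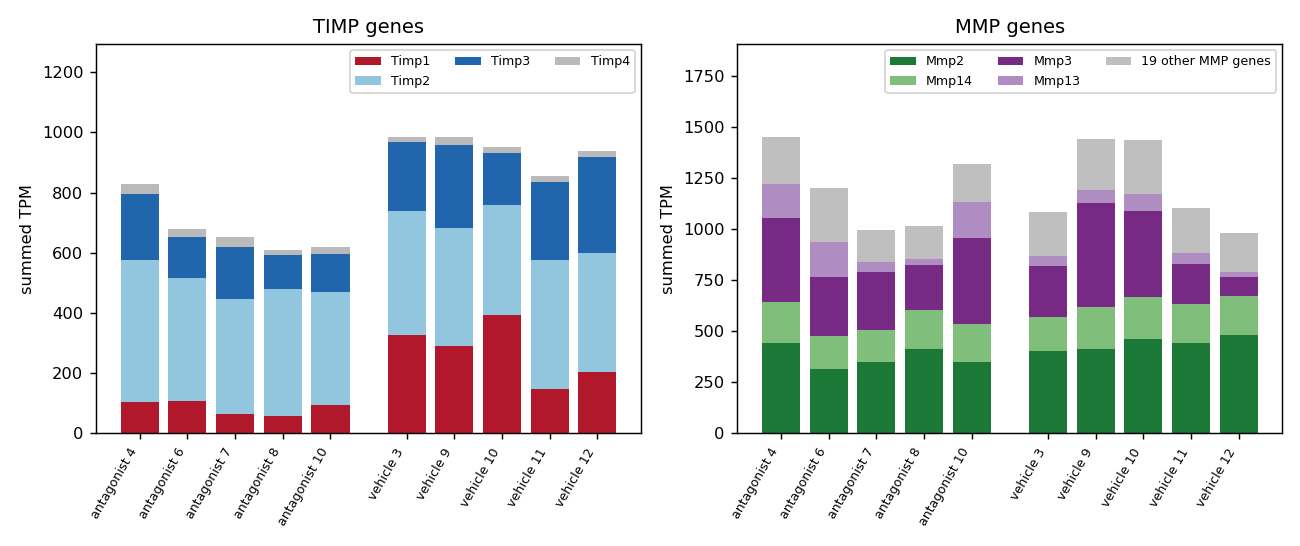
Summed TPM of the TIMP genes and of the MMP genes in each library, stacked by gene. Timp1 had 56.3 to 106 TPM in antagonist libraries and 148 to 392 TPM in vehicle libraries, and the MMP sums of the groups overlap.

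The collagenases cut the triple helix of fibrillar collagens, and none of the 3 tested passed, where 34.1% of all tested genes passed. Mmp13, the most abundant, had 164, 175, 50.6, 25.9 and 178 TPM in antagonist libraries and 49.7, 64.5, 80.9, 57.3 and 24.8 TPM in vehicle libraries. Antagonist replicates 4, 6 and 10 lay above every vehicle library, while replicates 7 and 8 lay within the vehicle range. The difference was 1.10 ± 0.49 (SE) in log2 fold change (edgeR, adjusted p = 0.102). It passed without antagonist replicate 8, at 1.35 on the log2 scale (edgeR adjusted p = 0.0232).

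Mmp8, the collagenase of neutrophil granules, averaged 10.3 ± 3.02 TPM in antagonist and 9.51 ± 3.18 TPM in vehicle ears (SD, n = 5 each). Its log2 fold change of 0.13 had an interval from -0.47 to 0.73. Mmp1b, a rodent relative of interstitial collagenase, averaged 0.832 TPM in antagonist and 1.45 TPM in vehicle ears and had an adjusted p of 0.168 by edgeR. It passed without vehicle replicate 12 (adjusted p = 0.0497). Its close copy Mmp1a had 1 to 7 counts per library and was not tested, and reads may have been split between these copies. Mmp1b also shares 10.8% of its exon bases with the more abundant Mmp12 on the opposite strand, which fell. Unstranded reads of such a pair cannot be told apart.

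The gelatinases, which cut denatured and basement membrane collagen, did not pass. Mmp2, made by fibroblasts, had 441, 315, 350, 414 and 349 TPM in antagonist libraries and 401, 413, 459, 439.9 and 479 TPM in vehicle libraries, and the groups overlapped. Its log2 fold change was -0.22 ± 0.09 (SE), with an interval from -0.42 to -0.02 and an adjusted p of 0.0787 by edgeR. Mmp9, known from neutrophils and wound-edge keratinocytes, had 56.7, 65.3, 18.3, 15.7 and 30.2 TPM in antagonist libraries and 21.6, 23.9, 42.96, 18.2 and 14.4 TPM in vehicle libraries. Antagonist replicates 4 and 6 were the highest of all 10 libraries and replicates 7 and 8 lay in the lower part of the vehicle range. Its log2 fold change of 0.61 had an interval from -0.31 to 1.53.

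Mmp11, or stromelysin 3, which furin activates inside the cell, showed the largest rise. It is on chromosome 10 from 75923221 to 75932502. It had 58.3, 70.5, 42.3, 55.1 and 41.4 TPM in antagonist libraries, against 19.9, 18.9, 23.1, 26.2 and 18.04 TPM in vehicle libraries. The lowest antagonist library lay above the highest vehicle library. The rise was 2.53-fold, or on the log2 scale 1.34 ± 0.16 (SE; edgeR adjusted p = 0.000731). Furin itself, at 77.1 ± 8.32 TPM in antagonist and 86.2 ± 4.52 TPM in vehicle ears (SD, n = 5 each), did not pass.

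The true stromelysins, which cut proteoglycans, laminin and fibronectin and activate other MMPs, did not pass. Mmp3 was abundant and uneven, at 413, 285, 284, 223 and 418 TPM in antagonist libraries and 252, 509.6, 421, 194 and 91.97 TPM in vehicle libraries. Its highest and its lowest value were both in the vehicle group. The log2 fold change of 0.15 had an interval from -0.67 to 0.97, and its sign turned without vehicle replicate 12, to -0.07. Mmp10 averaged 11.2 ± 4.69 TPM in antagonist and 15.7 ± 9.25 TPM in vehicle ears (SD, n = 5 each), with an adjusted p of 0.413 by edgeR.

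Mmp12, the elastase of macrophages, fell. It is on chromosome 9 from 7344397 to 7360461. Antagonist libraries had 19.3, 15.2, 27.2, 29.2 and 20.5 TPM, against 51.4, 53.6, 42.8, 62.3 and 57.5 TPM in vehicle libraries. The groups did not overlap, and the fall was 2.36-fold, or -1.24 ± 0.17 (SE) on the log2 scale (edgeR adjusted p = 0.00113). Macrophage markers moved alongside in part: 5 of 14 (35.7%) fell, among them Ccr2 and Adgre1, and 1 rose, Mertk. Among all tested genes 17.4% fell and 16.7% rose. Summed, these markers had 2901 to 4280 TPM in antagonist and 3656 to 5812 TPM in vehicle libraries, and their part in the fall of Mmp12 was not tested. Matrilysin, Mmp7, is an epithelial protease and was listed at 0 in every library.

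Of the 6 membrane-type MMPs, which are held at the cell surface, Mmp25 and Mmp16 fell. That is 33.3%, near the 34.1% of all tested genes that passed in either direction. Mmp25, or leukolysin, a protease of neutrophils and other leukocytes, is on chromosome 17 from 23628315 to 23645269 and had 1.06, 0.68, 0.89, 1.71 and 1.25 TPM in antagonist libraries and 3.64, 3.87, 2.36, 4.30 and 4.14 TPM in vehicle libraries. Its fall of 3.23-fold was the largest by fold change among the 39 tested members, with a difference of -1.69 ± 0.23 (SE) in log2 fold change (edgeR, adjusted p = 0.00105). All 8 tested neutrophil markers fell as well, where 17.4% of all tested genes fell. The listed markers summed to 670 to 2229 TPM in antagonist and 2034 to 3958 TPM in vehicle libraries. Most of this sum was S100a8 and S100a9, which averaged 603 and 612 TPM in antagonist and 1193 and 1488 TPM in vehicle ears. The surface marker gene Ly6g and the granule genes Mpo, Elane, Ngp, Camp and Ltf were too low to be tested, at 0 to 2.02 TPM, and the part of neutrophil numbers in the fall of Mmp25 was not tested. The other granule proteases of neutrophils among the members, Mmp8 and Mmp9, did not pass.

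Mmp16, a surface activator of Mmp2, had 0.86, 0.39, 0.67, 0.34 and 0.59 TPM in antagonist libraries and 0.99, 0.63, 0.96, 1.31 and 1.87 TPM in vehicle libraries. Its difference was -0.90 ± 0.31 (SE) on the log2 scale, close to the limit at an edgeR adjusted p of 0.0433, and it did not pass in 11 of 21 alternative analyses. Mmp14, the collagenase of the fibroblast surface and the main activator of Mmp2, was abundant and even, at 200, 163, 154, 188 and 187 TPM in antagonist libraries and 166, 203, 208, 193 and 192 TPM in vehicle libraries. The 95% interval of its log2 fold change ran from -0.26 to 0.06. Mmp15, Mmp17 and Mmp24 did not pass, with mean levels of 1.28 to 5.998 TPM in antagonist and 1.36 to 6.68 TPM in vehicle ears.

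Outside these classes Mmp23 and Mmp19 fell and Mmp28 rose. Mmp23, a protease anchored by its amino-terminal segment, is on chromosome 4 from 155650655 to 155654539. Its libraries had 6.14, 3.34, 4.03, 3.79 and 2.77 TPM with antagonist and 14.9, 9.76, 12.3, 12.1 and 14.1 TPM with vehicle, without overlap. On the log2 scale it differed by -1.59 ± 0.19 (SE; edgeR adjusted p = 0.000752). Mmp19, which cuts basement membrane proteins, had 41.5, 48.9, 19.7, 15.3 and 36.5 TPM in antagonist libraries and 54.97, 74.3, 76.3, 44.3 and 46.2 TPM in vehicle libraries. Antagonist replicate 6 lay within the vehicle range and replicates 7 and 8 were far below it. Mmp19 fell by 0.87 ± 0.30 (SE) on the log2 scale (edgeR adjusted p = 0.0417), and it did not pass in 9 of 21 alternative analyses, among them those without antagonist replicate 7, 8 or 10 or vehicle replicate 3, 9 or 10. Its exons share 789 bases, 22.8% of its exon length, with Tmem198b on the opposite strand, which did not pass.

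Mmp28, or epilysin, a protease of keratinocytes, had 9.72, 7.56, 6.97, 7.52 and 9.01 TPM in antagonist libraries and 4.50, 7.09, 5.33, 7.14 and 6.22 TPM in vehicle libraries. Antagonist replicate 7 lay below 2 of the vehicle libraries. The difference was 0.44 ± 0.11 (SE) in log2 fold change (edgeR, adjusted p = 0.0127). By GENCODE, Mmp28 shares 12.3% of its exon bases with 1700020L24Rik on the opposite strand. The deposited table puts both on the plus strand. 1700020L24Rik also rose, by 0.47 on the log2 scale, and unstranded reads of such a pair cannot be told apart. Mmp27 averaged 6.02 TPM in antagonist and 6.03 TPM in vehicle ears, with an interval of its log2 fold change from -0.44 to 0.41. Mmp20, known from tooth enamel, and Mmp21 had at most 2 counts in any library.

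**Figure D3:**
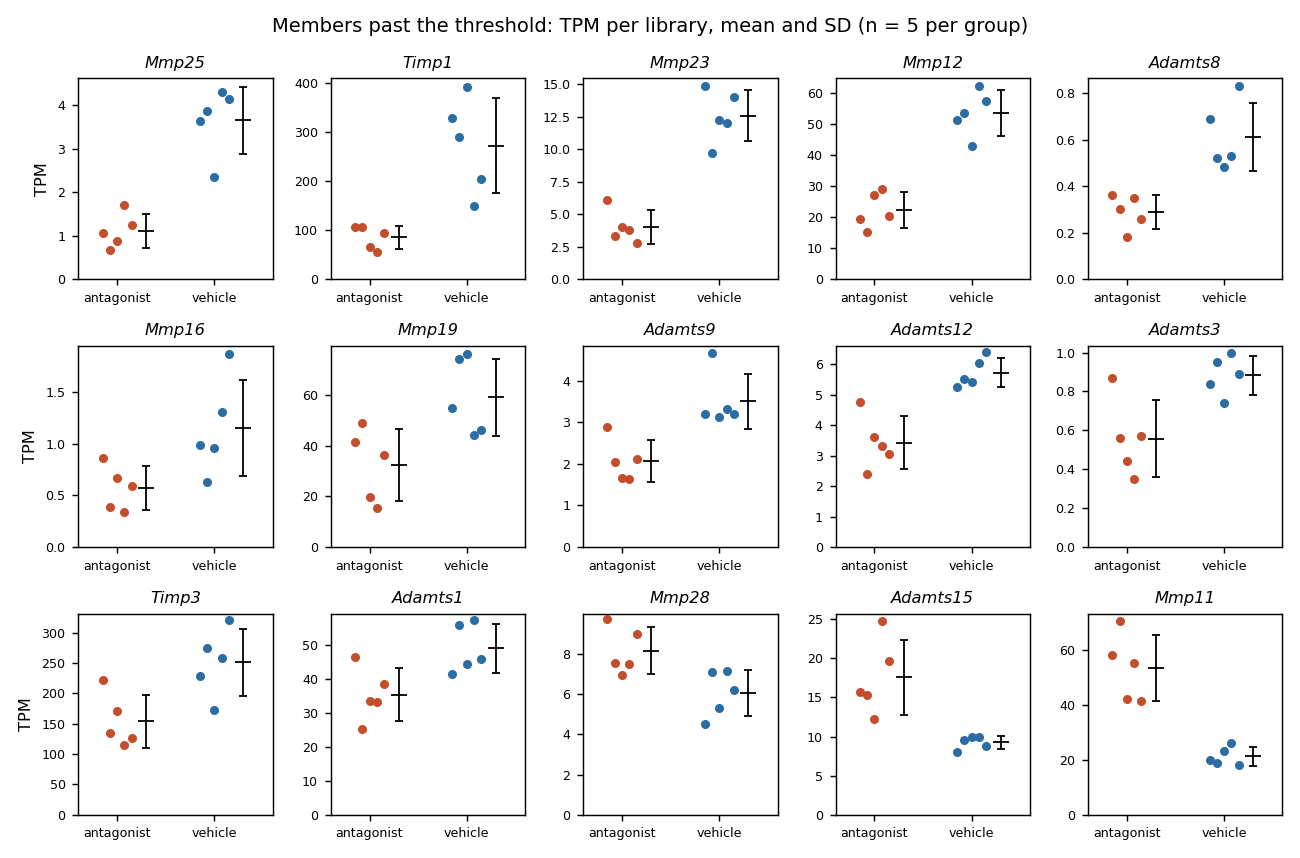
TPM per library of the 15 members that passed the threshold, ordered by fold change, with the mean and SD of each group (n = 5). The groups do not overlap for Mmp25, Timp1, Mmp23, Mmp12, Adamts8, Adamts9, Adamts12, Adamts15 and Mmp11, and overlap for the other 6.

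The groups did not overlap in TPM in 7 of the 39 tested members on the lower side and 2 on the higher side. Among all tested genes 9.9% were without overlap and lower, and 7.34% were without overlap and higher.

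Of the 16 tested ADAMTS genes 5 fell and 1 rose, which is 31.2% lower and 6.25% higher, beside 17.4% lower and 16.7% higher over all tested genes. The hyalectanases, which cut versican and aggrecan, moved in both directions. Adamts15 is on chromosome 9 from 30899155 to 30922452 and had 15.7, 15.3, 12.3, 24.8 and 19.7 TPM in antagonist libraries, against 8.01, 9.53, 9.94, 10.0 and 8.78 TPM in vehicle libraries. The groups did not overlap, and on the log2 scale a change of 0.93 ± 0.15 (SE; edgeR adjusted p = 0.00208).

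Adamts1, the most abundant of the hyalectanases, fell, at 46.4, 25.2, 33.4, 33.3 and 38.4 TPM in antagonist libraries and 41.5, 56.0, 44.4, 57.5 and 45.8 TPM in vehicle libraries. Antagonist replicate 4 lay within the vehicle range. Adamts1 fell by 0.46 ± 0.12 (SE) on the log2 scale (edgeR adjusted p = 0.0147). Adamts9 fell too, with 2.89, 2.05, 1.66, 1.63 and 2.12 TPM in antagonist libraries, all below the 3.20, 4.68, 3.14, 3.33 and 3.20 TPM of vehicle libraries, and its fold change was -0.75 ± 0.15 (SE) on the log2 scale (edgeR adjusted p = 0.00392). Adamts8, at 0.18 to 0.36 TPM in antagonist and 0.48 to 0.83 TPM in vehicle libraries, had a difference of -1.09 ± 0.24 (SE) in log2 fold change (edgeR, adjusted p = 0.00654).

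Adamts4 and Adamts5, the aggrecanases known from cartilage loss in arthritis, did not pass. Adamts4 averaged 9.31 ± 2.10 TPM in antagonist and 11.4 ± 4.38 TPM in vehicle ears, and Adamts5 averaged 9.55 ± 2.56 TPM in antagonist and 11.3 ± 3.25 TPM in vehicle ears (SD, n = 5 each). The intervals of their log2 fold changes ran from -0.80 to 0.23 and from -0.72 to 0.23. Adamts20 had 0.21 to 0.33 TPM in antagonist and 0.20 to 0.43 TPM in vehicle libraries. Of the substrates, versican fell: Vcan had 6.89 to 10.4 TPM in antagonist and 17.3 to 31.4 TPM in vehicle libraries. Aggrecan (Acan) averaged 52.2 ± 13.5 TPM in antagonist and 58.2 ± 13.4 TPM in vehicle ears (SD, n = 5 each) and did not pass.

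The procollagen N-proteinases trim the amino end of fibrillar procollagens. Adamts2, the main enzyme of skin, had 49.6, 35.4, 39.0, 42.6 and 34.8 TPM in antagonist libraries and 41.9, 45.2, 46.4, 44.8 and 44.2 TPM in vehicle libraries, and the groups overlapped. The 95% interval of its log2 fold change was -0.32 to 0.05. In the same ears its substrate chain Col1a1 averaged 222 ± 90.3 TPM in antagonist and 846 ± 314 TPM in vehicle ears (SD, n = 5 each), and fell by 1.94 ± 0.31 (SE) on the log2 scale. Adamts3, which also processes a lymphatic growth factor, was low and fell by 0.72 ± 0.21 (SE) on the log2 scale (edgeR adjusted p = 0.0210). Its libraries had 0.35 to 0.87 TPM with antagonist and 0.74 to 1.00 TPM with vehicle. Adamts14 averaged 9.30 TPM in antagonist and 11.1 TPM in vehicle ears, and passed without antagonist replicate 4, its highest library (log2 fold change -0.49, adjusted p = 0.0496).

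Adamts12 and Adamts7 are known to cut cartilage oligomeric matrix protein (COMP), and their fold changes had opposite signs. Adamts12 had 4.75, 2.41, 3.60, 3.31 and 3.04 TPM in antagonist libraries, all below the 5.26, 5.51, 5.40, 6.04 and 6.39 TPM of vehicle libraries. It fell by 0.73 ± 0.14 (SE) on the log2 scale (edgeR adjusted p = 0.00310). Adamts7 averaged 4.01 TPM in antagonist and 3.07 TPM in vehicle ears, with a difference of 0.38 ± 0.16 (SE) in log2 fold change (edgeR, adjusted p = 0.0922), and it passed without vehicle replicate 10. Comp itself had 8.39 to 25.6 TPM in antagonist and 27.96 to 46.4 TPM in vehicle libraries.

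None of the 4 fibrillin-associated genes passed, where 34.1% of all tested genes passed in either direction. Adamts10, mutated in a human short stature syndrome and the most abundant of them, had 7.35, 7.0, 7.07, 6.57 and 6.23 TPM in antagonist libraries and 6.40, 7.39, 7.03, 9.33 and 7.51 TPM in vehicle libraries. Its interval of the log2 fold change was -0.36 to 0.07. Adamts6, Adamts17 and Adamts19 had means of 0.236 to 1.35 TPM in antagonist and 0.180 to 1.29 TPM in vehicle ears. Adamts13, which cuts von Willebrand factor and is made in liver, Adamts16 and Adamts18 had at most 20 counts in any library and were not tested. Adamts18, the most abundant of these, had 0.03 to 0.13 TPM in antagonist and 0.05 to 0.31 TPM in vehicle libraries.

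**Figure D4:**
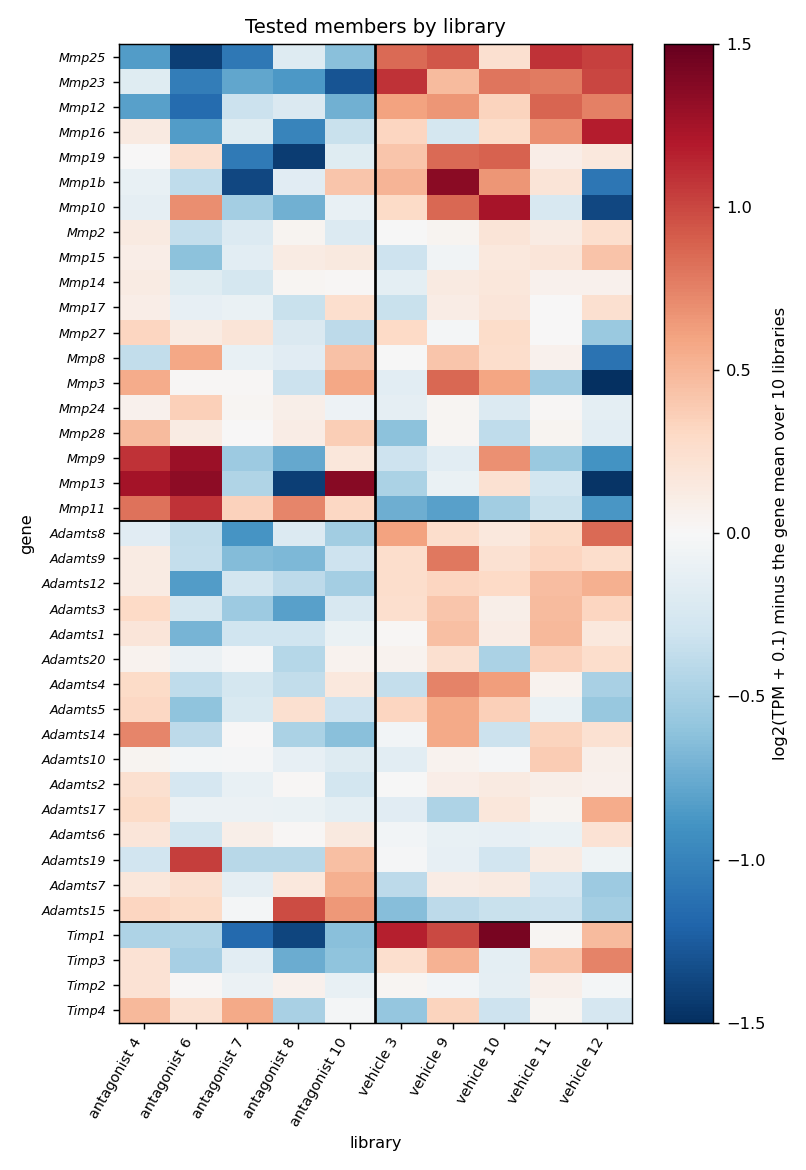
Each tested member in each library, as log2(TPM + 0.1) minus the gene's mean over the 10 libraries, by family and fold change, with antagonist libraries on the left. Mmp25, Mmp23, Mmp12 and Timp1 are below their mean in all antagonist libraries, while Mmp13 and Mmp9 are high in antagonist replicates 4 and 6 and low in replicates 7 and 8.

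Of the MMP genes 10 lie side by side on chromosome 9, from 7272514 to 7699585, a span of 427 kb. This cluster holds the collagenases, the stromelysins Mmp3 and Mmp10, the elastase Mmp12 and the genes Mmp27, Mmp20 and Mmp7. Among its 7 tested genes 1 passed, Mmp12, where 34.1% of all tested genes passed in either direction. Vehicle replicate 12 was the lowest vehicle library for 6 of the 7, Mmp13, Mmp1b, Mmp3, Mmp10, Mmp8 and Mmp27, and Mmp12 was the exception. That library was the lowest vehicle library for 22.1% of all tested genes. This pattern was seen in the data and is given without a test.

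**Figure D5:**
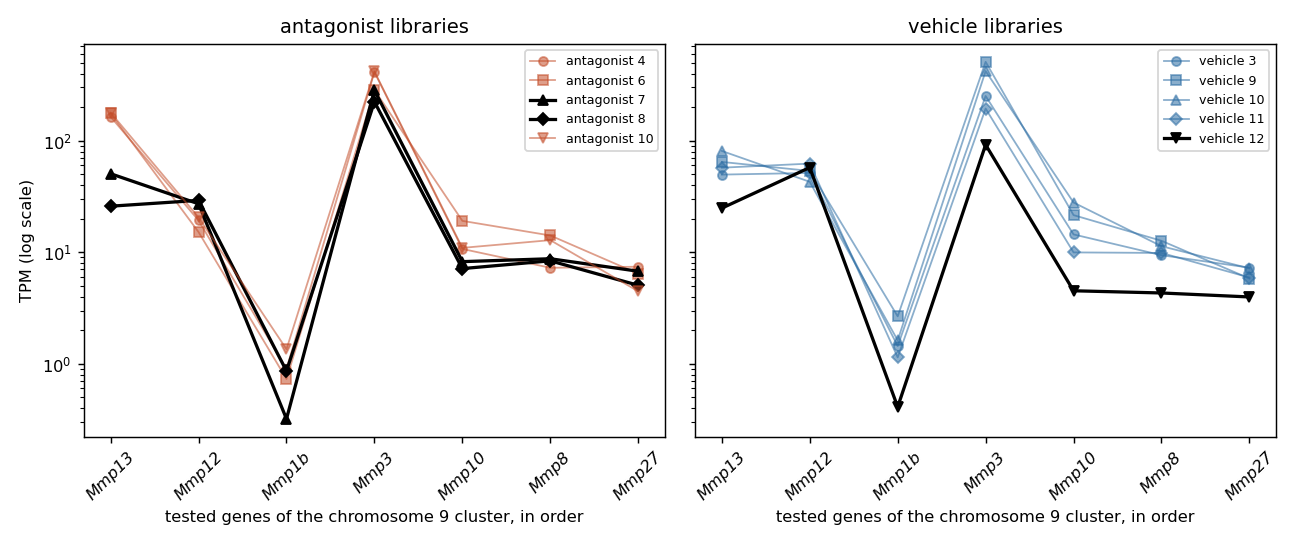
TPM on a log scale of the 7 tested genes of the chromosome 9 cluster, in chromosomal order, with 1 line per library. Vehicle replicate 12 (black) lies below the other vehicle libraries at every gene but Mmp12, and antagonist replicates 7 and 8 (black) lie below the other antagonist libraries at Mmp13, Mmp3 and Mmp10.

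The promoters of this cluster are shown because 6 of its 7 tested genes shared their lowest vehicle library and because several MMP genes are known targets of the transcription factor AP-1. The letters of its consensus site, TGAGTCA, were searched on both strands in the 250 bases before each RefSeq start on GRCm38.p6. A promoter was available for 32 of the 46 members. The site was found for 7 of them, Mmp1a, Mmp1b, Mmp3, Mmp7, Mmp10, Mmp12 and Mmp13, and all 7 are in the cluster. All 10 genes of the cluster had a promoter. The members without one, Mmp2 and Mmp9 among them, therefore all lie outside the cluster and were not searched. Counted in the same way, in any promoter of a gene, it was found in 5.16% of 27025 genes, and per promoter in 4.46% of 32851. The last 100 bases before the start follow for the 7 tested genes of the cluster, 5′ to 3′ on the coding strand, with the site in capitals.
Mmp13, chr9:7272414-7272513, plus strand: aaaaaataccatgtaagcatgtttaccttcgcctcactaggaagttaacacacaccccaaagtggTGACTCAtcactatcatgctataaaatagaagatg
Mmp12, chr9:7347274-7347373, plus strand: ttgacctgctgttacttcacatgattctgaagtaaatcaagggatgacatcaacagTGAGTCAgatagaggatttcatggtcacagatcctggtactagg
Mmp1b, chr9:7388027-7388126, minus strand: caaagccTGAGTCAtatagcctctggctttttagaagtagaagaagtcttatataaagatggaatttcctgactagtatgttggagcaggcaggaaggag
Mmp3, chr9:7445722-7445821, plus strand: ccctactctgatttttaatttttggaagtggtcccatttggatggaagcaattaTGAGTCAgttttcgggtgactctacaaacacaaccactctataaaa
Mmp10, chr9:7502242-7502341, plus strand: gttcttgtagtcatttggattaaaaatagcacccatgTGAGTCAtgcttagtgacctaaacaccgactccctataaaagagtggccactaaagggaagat
Mmp8, chr9:7558329-7558428, plus strand: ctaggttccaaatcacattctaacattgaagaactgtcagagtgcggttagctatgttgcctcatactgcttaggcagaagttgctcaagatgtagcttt
Mmp27, chr9:7571296-7571395, plus strand: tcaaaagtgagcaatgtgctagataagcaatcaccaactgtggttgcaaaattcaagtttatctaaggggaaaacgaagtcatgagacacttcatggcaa

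The site began 35 bases before the start in Mmp13, 44 in Mmp12, 93 in Mmp1b, 46 in Mmp3 and 63 in Mmp10. Mmp12 holds it only at this downstream start, and the window of its upstream start, at the gene start of the deposited table, lacked the letters. Mmp8 and Mmp27 do not hold them in the bases searched. By GENCODE, 29 of the 35 member promoters ran into a transcript of the gene, among them each one printed but that of Mmp8. Positions are therefore counted from the RefSeq start only. A match of letters is a description and shows no binding, and its relation to the fold changes was not tested.

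The proteases act with other inhibitors, activators and substrates, which were grouped into lists. Of all tested genes 17.4% fell and 16.7% rose. Of 12 tested other inhibitors and ADAMTS-like proteins 5 rose and 3 fell, with a median log2 fold change of 0.16. Papln, papilin, a matrix protein with ADAMTS-like and inhibitor domains, rose most clearly, to 4.18 to 6.82 TPM in antagonist libraries, against 1.19 to 2.52 TPM in vehicle libraries. Wfikkn2, a secreted protein with protease inhibitor domains, had 3.35 to 12.7 TPM in antagonist and 1.11 to 1.40 TPM in vehicle libraries. Spock2, a testican, had 24.7 to 30.5 TPM in antagonist and 8.06 to 16.3 TPM in vehicle libraries, a rise on the log2 scale of 1.18 ± 0.15 (SE; edgeR adjusted p = 0.000854). Reck, the membrane-anchored inhibitor of MMPs, averaged 23.5 ± 4.90 TPM in antagonist and 25.8 ± 4.55 TPM in vehicle ears (SD, n = 5 each) and did not pass.

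Of 13 tested activators and inducers 4 fell (30.8%) and 2 rose (15.4%), against 17.4% lower and 16.7% higher over all tested genes. The urokinase receptor gene Plaur, which focuses plasmin formation at the cell surface, had 31.3 to 51.7 TPM in antagonist and 66.97 to 99.9 TPM in vehicle libraries. Plat, tissue plasminogen activator, averaged 8.41 ± 1.12 TPM in antagonist and 16.8 ± 4.24 TPM in vehicle ears (SD, n = 5 each). Ctsg, cathepsin G, was low, at 0.26 to 1.92 TPM in antagonist and 3.55 to 8.11 TPM in vehicle libraries. Its fall was 2.75 ± 0.47 (SE) on the log2 scale. Prss8 and St14, a pair of epidermal membrane proteases, rose, by 0.66 and 0.34 on the log2 scale.

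Of 10 tested surface ADAM proteases, which shed membrane proteins, 5 fell and 0 rose, against 17.4% lower and 16.7% higher over all tested genes. Adam12 had 1.95 to 5.74 TPM in antagonist and 8.04 to 9.64 TPM in vehicle libraries. Adam23 fell by 0.74 ± 0.13 (SE) and Adam19 by 0.77 ± 0.15 (SE) on the log2 scale. Adam17, the sheddase of tumour necrosis factor that Timp3 inhibits, averaged 27.1 ± 2.31 TPM in antagonist and 32.2 ± 1.85 TPM in vehicle ears (SD, n = 5 each), with a log2 fold change of -0.25 ± 0.05 (SE). In the list of astacin and procollagen processing genes 2 of 4 tested fell, Pcolce and Bmp1, which act on the carboxyl end of procollagen. Of 22 tested matrix substrates 16 fell and 0 rose, with a median log2 fold change of -1.07. Besides versican, the collagen chains Col5a1 (9.36 to 20.3 TPM in antagonist and 37.4 to 83.7 TPM in vehicle libraries) and Col3a1 (181 to 543 TPM in antagonist and 912 to 1819 TPM in vehicle libraries) were the furthest apart by p. Furin, Reck, Prss8, St14, Adam17, Acan, Comp and Col1a1 were chosen for mention after their values were seen.

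Marker lists of cell types are given beside the 17.4% of all tested genes that fell and the 16.7% that rose. Of 14 tested fibroblast markers 12 fell and 0 rose, with a summed level of 2331 to 3324 TPM in antagonist and 4772 to 6021 TPM in vehicle libraries. Cartilage markers fell in 12 of 16 and rose in 0, at 356 to 641 TPM in antagonist and 607 to 1056 TPM in vehicle libraries. Blood vessel markers fell in 6 of 14 (42.9%) and rose in 2 (14.3%). Basal keratinocyte markers fell in 0 of 9 and rose in 2 (22.2%). Among 6 bone and osteoclast markers 1 rose, Acp5, with Bglap listed at 0 in every library. Skeletal muscle markers rose in 1 of 11 (9.09%) and adipocyte markers in 1 of 7 (14.3%), and neither list had a fall. Rises in the bone, muscle and adipocyte lists were thus not above the share of all tested genes. Their part in the changes of the proteases and inhibitors was not tested. A score of the cartilage markers was used as a covariate, which cannot tell their part from that of the treatment.

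The cartilage score, the mean log2 CPM of that list, was 3.50 ± 0.765 in antagonist and 5.12 ± 0.377 in vehicle libraries (SD, n = 5 each). With this score in the edgeR model 0 members and 0 genes in all passed. An unadjusted p under 0.05 was found for 12 of 39 members and for 1889 of the 15174 tested genes. No other tool was run with the score. All 15 members that passed without it kept their sign. With the score the log2 fold change was 1.34 for Mmp11, -2.10 for Timp1, -0.04 for Timp3 and -0.20 for Adamts12. Their edgeR adjusted p-values were 0.152, 0.157, 0.958 and 0.572. The score did not overlap between groups (2.59 to 4.55 in antagonist and 4.77 to 5.60 in vehicle libraries). The fit therefore cannot separate it from the treatment, and differences between members in this fit were not tested.

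In the authors' deposited table, made with DESeq2, 13 members had a q-value under 0.05 with a lower level in antagonist ears and 3 with a higher level. There, 14.7% of genes were lower and 14.5% higher at the same limit. The 15 members that passed by edgeR were among those 16, with the same direction, and the further gene was Adamts16, with a q-value of 0.0472 in the authors' deposited table at 0 to 5 counts per library.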

How the data were processed

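RNA was measured by bulk RNA-seq in 10 ear skin libraries, 5 per group. The authors deposited 1 table with expected counts, TPM and FPKM per gene and library, and their own log2 fold changes, p-values and q-values, which are from DESeq2 per the file headers. HISAT is named, without a version, per the submitters' processing notes. Counting tool, annotation and build: not given in the sources used here. No strand marking is mentioned in the labels' protocols.

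Expected counts were rounded to whole numbers and tested with edgeR 4.0.16 in R 4.3.3 (TMM scaling, filterByExpr with a minimum count of 10, quasi-likelihood F test, Benjamini-Hochberg adjustment over 15174 genes). FPKM values were not used. Alternatives used DESeq2 1.42.0 and limma 3.58.1, other filters and scalings, TPM with pseudocounts of 1 and 0.1, a cartilage covariate and each library left out. The test was also run on simulated counts of 15082 genes for this comparison. It recovered 55.2% of 67 changes of 1.5-fold, 88.1% of 67 of 2-fold and 100% of 65 of 4-fold. Of 14883 unchanged genes it called 6. The changed genes had a mean over 1 CPM and were a far smaller share than the 34.1% that passed in the data. Recovery in the data may therefore differ. Values in every library were given for the TIMPs and for members that passed with a mean of at least 1 TPM. Of the members that passed, up to the 10 largest falls and 8 largest rises were taken. Per-library values were also given for the most abundant member of each role class but Adamts18, which was not tested and has a range. Mmp9 and Mmp16, also shown in every library, fall outside this rule and were chosen after their values were seen. Up to 3 genes with the smallest p were named from each pathway list, and other genes named were chosen after their values were seen. Members and gene lists were chosen with earlier results of these data known. Promoters are from RefSeq on GRCm38.p6, and exon overlaps, with their strands, are from GENCODE. The strand in the deposited table differed from GENCODE for 4 members, Adamts3, Adamts5, Mmp28 and Timp2. No 2 libraries agreed within sampling noise.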

Additional observations from a re-analysis of the deposited data

Results flagged for a closer look

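In 3 of 78 groups of 5 libraries, 1 library stood apart from the other 4 by Dixon's ratio, and chance flags about 5% of groups. Adamts6 had 1.55 TPM in vehicle replicate 12, against at most 1.27 TPM in the other vehicle libraries. Adamts9 had 4.68 TPM in vehicle replicate 9, against at most 3.33 TPM in the other vehicle libraries. Adamts17 had 0.73 TPM in antagonist replicate 4, against at most 0.54 TPM in the other antagonist libraries.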

How the results depend on the processing

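Of 21 alternatives, 19 left the numbers of members that rose and fell within 1.5 times of 3 and 12. Leaving out each library gave 3 to 4 members that rose and 10 to 13 that fell. In those fits 12.3% to 18.2% of all tested genes rose and 12.9% to 18.8% fell. Tested against a fold of 1.5, 1 member rose and 4 fell, where 0.389% of all tested genes rose and 1.44% fell. With the cartilage covariate 0 rose and 0 fell, where the score itself did not overlap between groups (2.59 to 4.55 in antagonist and 4.77 to 5.60 in vehicle libraries). Mmp11, Mmp12, Mmp23, Mmp25 and Timp1 passed in every alternative but the covariate. With the covariate the log2 fold change turned sign in Adamts2 (0.12), Adamts7 (-0.17), Adamts10 (0.06), Adamts14 (0.57), Adamts17 (0.38), Adamts19 (-0.99), Mmp2 (0.01), Mmp3 (-0.40), Mmp8 (-0.95), Mmp15 (0.05) and Mmp27 (0.11), none of which had passed, and the cause was not tested. Mmp27 also turned with limma-voom (0.02) and limma on TPM (0.0023 and 0.0039 with pseudocounts of 1 and 0.1). Leaving out each library gave -0.25 to 0.06 for Adamts17, -0.19 to 0.48 for Adamts19, -0.07 to 0.41 for Mmp3, -0.04 to 0.25 for Mmp8 and -0.12 to 0.09 for Mmp27, none of which passed. No paired analysis was possible because the groups share only 1 replicate number.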

Other observations

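Antagonist replicates 7 and 8 were the lowest antagonist libraries in 11 of 39 tested members (28.2%), against 15.0% of all tested genes. Their gap to the next antagonist library was over 1.5 times in 3 members, Mmp9, Mmp13 and Mmp19, against 0.356% of all tested genes. Mmp9 had 18.3 and 15.7 TPM in these libraries and 30.2 to 65.3 TPM in the other antagonist libraries. Mmp13 had 50.6 and 25.9 TPM in them and 164 to 178 TPM in the others. These counts were made after the values were seen and carry no test.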
